A study of Mus musculus with 6 samples.

Results

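Genes of capillary endothelium and vessel growth were followed in mouse quadriceps. They are Vegfa, Vegfb, Kdr, Flt1, Pecam1, Cdh5, Tek, Angpt1, Nos3 and Thbs1, chosen by name, and all 10 were found among the 48795 genes of the count table and passed the filter on low counts that left 13628 genes for testing. The tested animals were male C57BL/6 mice aged 20 weeks with a muscle-specific deletion of estrogen receptor alpha (MERKO, 3 libraries), and wild-type males of the same strain and age were the control (3 libraries). RNA was taken from whole quadriceps, so it holds RNA of fibres, vessels, nerve and connective tissue. The driver of the deletion, and whether control mice carried any part of it, were not given in any source used here. The labels do not say more of the replicates than their number, so a p-value here speaks of the spread between libraries, which may be technical.

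Muscle fibres are supplied by a dense capillary bed, and the fibres themselves make much of the vascular endothelial growth factor (VEGF) that maintains it. VEGF-A acts on endothelial cells through the receptor tyrosine kinase KDR (VEGFR2), while FLT1 (VEGFR1) binds VEGF-A and VEGF-B and, in its soluble form, takes VEGF-A away from KDR. Angiopoietin-1 steadies vessels through the receptor TEK (Tie2), endothelial junctions are held by PECAM1 and VE-cadherin (Cdh5), NOS3 makes the vasodilator nitric oxide, and thrombospondin-1 (Thbs1) inhibits vessel growth.

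Totals ran from 15755947 to 26596608 counts in MERKO libraries and from 14935532 to 44282448 counts in control libraries, of which the 10 genes took 3910 to 18252 and 4316 to 15948 counts. The library make-up varied within both groups. An rRNA gene model took 6.19% to 32.4% of counts in MERKO libraries and 0.0433% to 27.7% in control libraries. The slow myosin gene Myh7 stood at 160 CPM (counts per 1e6 of the TMM-scaled library) in MERKO 1 and 185 CPM in control muscle 1, against 8.07 CPM or less in the other 4 libraries. Esr1, the targeted gene, stood at 7.88 ± 1.39 CPM in MERKO muscle and 30.1 ± 4.59 CPM in control muscle (SD, n = 3 each) and fell by 1.95 on the log2 scale (adjusted p = 0.0262, edgeR quasi-likelihood test). Ckm, the muscle creatine kinase, was at 13937 to 20113 CPM in MERKO muscle and 19877 to 23586 CPM in control muscle. All 40 other endothelial marker genes examined passed the filter on low counts.

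The stretches of DNA just before the start of 4 of these genes are shown first, because Vegfa, Vegfb and Flt1 had some of the closest library-to-library patterns of the set and Kdr encodes the other VEGF-A receptor. Each is the 250 bases before the RefSeq start (GRCm38.p6), 5′ to 3′ on the gene's own strand. Capitals mark the hexamer AGGTCA, which nuclear receptors of the estrogen receptor and estrogen-related receptor families bind, and the hypoxia response core, ACGTG or GCGTG, each searched on both strands. Vegfa lies at chr17:46032378-46032627, Vegfb at chr19:6987652-6987901, Kdr at chr5:75978456-75978705 and Flt1 at chr5:147726012-147726261, all on the minus strand.
Vegfa: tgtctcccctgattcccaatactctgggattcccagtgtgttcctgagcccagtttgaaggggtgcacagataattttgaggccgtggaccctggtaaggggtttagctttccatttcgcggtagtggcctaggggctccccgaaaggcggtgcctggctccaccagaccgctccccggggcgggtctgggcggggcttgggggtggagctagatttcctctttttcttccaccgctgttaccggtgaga
Vegfb: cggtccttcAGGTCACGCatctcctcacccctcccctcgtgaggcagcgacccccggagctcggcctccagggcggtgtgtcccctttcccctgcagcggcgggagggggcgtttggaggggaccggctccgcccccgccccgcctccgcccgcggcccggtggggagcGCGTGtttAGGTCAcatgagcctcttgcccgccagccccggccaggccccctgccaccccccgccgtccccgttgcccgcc
Kdr: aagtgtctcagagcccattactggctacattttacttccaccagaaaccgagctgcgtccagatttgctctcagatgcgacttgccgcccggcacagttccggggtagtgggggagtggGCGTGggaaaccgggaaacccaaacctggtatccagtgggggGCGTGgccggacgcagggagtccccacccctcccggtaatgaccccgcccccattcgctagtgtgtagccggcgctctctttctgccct
Flt1: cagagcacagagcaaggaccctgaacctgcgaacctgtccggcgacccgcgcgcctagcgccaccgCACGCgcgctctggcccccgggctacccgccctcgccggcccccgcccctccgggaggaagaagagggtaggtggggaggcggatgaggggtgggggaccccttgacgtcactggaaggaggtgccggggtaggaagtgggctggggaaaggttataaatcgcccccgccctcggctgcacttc

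The Vegfb window held 2 AGGTCA hexamers, which start 241 and 73 bases before the start site. The first shares 2 bases with a hypoxia response core. Of 32851 promoter windows in the RefSeq table, 14.0% held at least 1 such hexamer and 1.36% held 2 or more, while the Vegfa, Kdr and Flt1 windows held 0. The hypoxia response core was found 2 times in Vegfb, 2 times in Kdr, once in Flt1 and not in this Vegfa window, against 38.6% of all windows with at least 1 and 16.7% with 2 or more. A second RefSeq start of Vegfa, with its window at chr17:46025164-46025413, held 2 hypoxia response cores and is not printed. The ETS core GGAA, bound by the endothelial ETS factors, was found 6 times in Vegfa, 4 times in Kdr, 4 times in Flt1 and once in Vegfb, but 93.4% of all windows hold it. These are matches of letters only, in windows of high GC content (59.2% in Vegfa, 61.6% in Kdr, 70.4% in Flt1 and 76.4% in Vegfb). The table also held a Tek window, with 0 matches to either marked motif. It held windows for 5 of the 10 genes, and none for Pecam1, Cdh5, Angpt1, Nos3 or Thbs1.

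The question put to these genes was whether loss of the receptor in muscle went with a different level of capillary and angiogenic transcripts. Of the 10 genes, 7 were higher and 3 lower in MERKO, where 52.1% and 47.9% of all genes were, and 0 passed an adjusted p of 0.05 in the edgeR test, where Esr1 was the 1 called gene, or 0.00734% of all genes tested. At an unadjusted p under 0.05 there was 1 of the 10, Thbs1, against 7.04% of all genes. DESeq2 called 0 of the 10, against 0.165% of all genes it adjusted, and limma-voom also called 0, against 1 of 13628 genes. The median log2 fold change of the 10 was 0.15, against 0.011 over all genes tested, and it was -0.026 without MERKO 1, 0.038 without control 3, and 0.31 without either MERKO 2 or control 1. In bulk tissue, fewer cells of a type and less RNA per cell cannot be told apart.

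**Figure D1:**
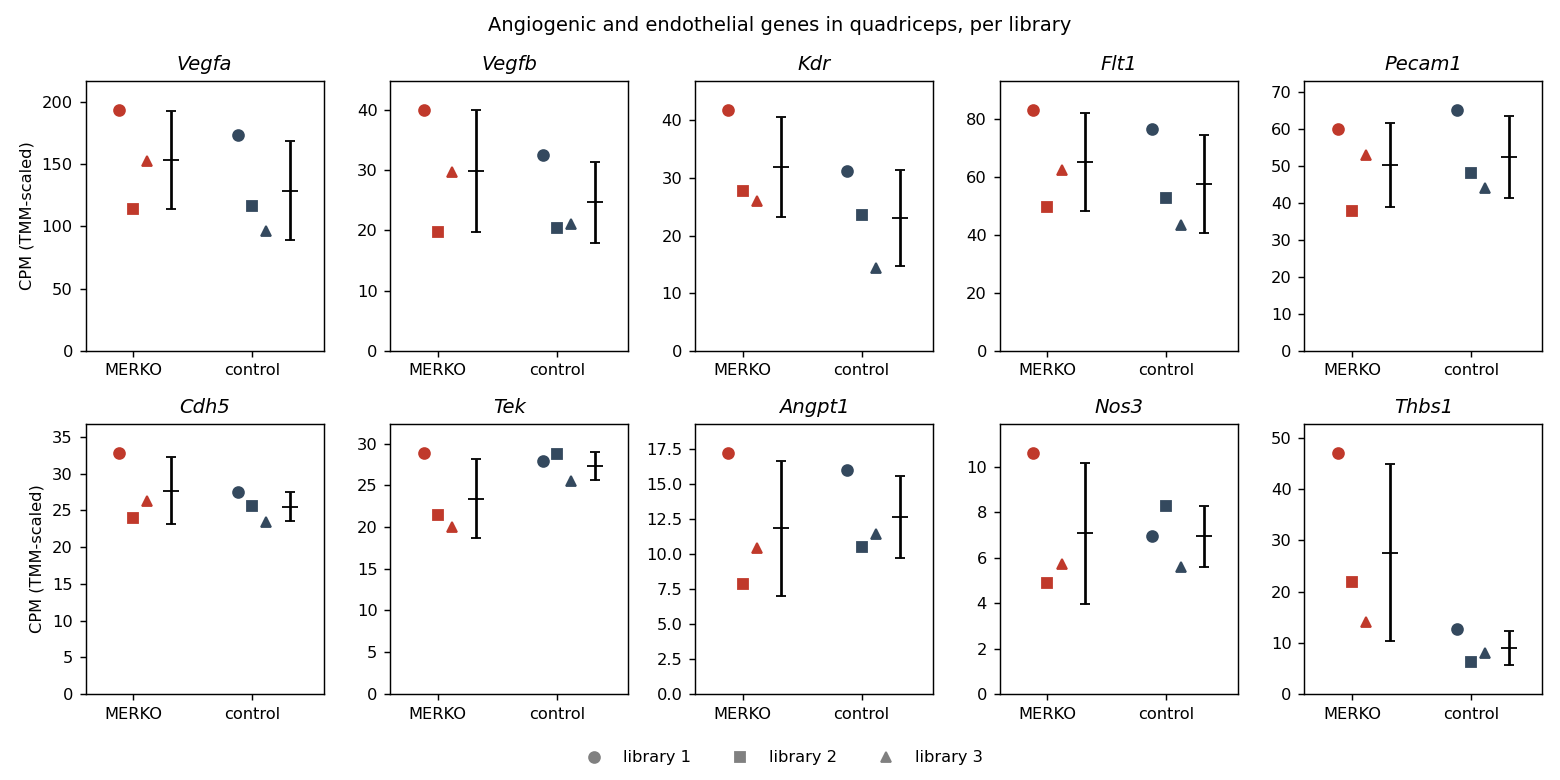
CPM of each gene per library, MERKO in red and control in dark blue, with marker shapes for the library number and bars for the mean ± SD of 3 libraries. Thbs1 is the gene in which the 3 MERKO libraries (14.0 to 47.0 CPM) all lie above the 3 control libraries (6.31 to 12.6 CPM).

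The ligands were taken first. Vegfa, the main growth factor for endothelium (GRCm38 chromosome 17, 46016993 to 46032369, minus strand), stood at 194, 114 and 152 CPM in MERKO libraries 1 to 3 and at 173, 116 and 96.3 CPM in control libraries 1 to 3. The groups overlapped, and library 1 was the highest of each group. Its log2 fold change was 0.26 (SE 0.25, 95% interval -0.32 to 0.83, adjusted p = 0.838, edgeR). The interval reaches from 0.803-fold to 1.77-fold, so a difference of this size was not detectable with 3 libraries a group, which does not show that the levels are alike.

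Vegfb, a ligand of FLT1 that is abundant in muscle and heart (chromosome 19, 6982473 to 6987651, minus strand), stood at 40.0, 19.8 and 29.7 CPM in MERKO muscle and 32.5, 20.4 and 21.1 CPM in control muscle. Its order of libraries in MERKO was that of Vegfa, with library 1 highest and library 2 lowest. The log2 fold change was 0.28 (SE 0.27, interval -0.32 to 0.89, adjusted p = 0.829). Angpt1, the ligand of TEK (chromosome 15, 42424723 to 42676977, minus strand), stood at 17.2, 7.83 and 10.4 CPM in MERKO muscle and 15.96, 10.5 and 11.4 CPM in control muscle. The control values lay inside the range of the MERKO values, and the log2 fold change was -0.073 (SE 0.28, interval -0.72 to 0.57, adjusted p = 0.962). An antisense gene, Gm17473, shares 737 exonic bases with Angpt1. Its own counts came to at most 0.334 CPM in MERKO muscle and 0.110 CPM in control muscle, and no source used here gives the strand setting of the counting.

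Among the receptors, Kdr, the signalling receptor for VEGF-A (chromosome 5, 75932827 to 75978458, minus strand), was at 41.8, 27.8 and 25.9 CPM in MERKO muscle and 31.2, 23.5 and 14.4 CPM in control muscle. The groups overlapped through control 1, and control 3 was the lowest library. The log2 fold change was 0.48 (SE 0.28, interval -0.17 to 1.13, adjusted p = 0.719), the second largest of the 10. It was 0.23 without MERKO 1, 0.22 without control 3 and 0.77 without control 1.

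Flt1, the decoy receptor for VEGF-A (chromosome 5, 147561604 to 147726011, minus strand), stood at 83.1, 49.6 and 62.5 CPM in MERKO muscle and 76.4, 52.8 and 43.4 CPM in control muscle. The 2 groups covered nearly the same range (log2 fold change 0.18, SE 0.24, interval -0.37 to 0.73, adjusted p = 0.877). The count sums all exons, so the membrane and soluble forms cannot be told apart. Tek, the angiopoietin receptor (chromosome 4, 94739289 to 94874976, plus strand), stood at 28.9, 21.4 and 20.0 CPM in MERKO muscle and 27.9, 28.7 and 25.5 CPM in control muscle. MERKO 2 and MERKO 3 lay below every control library, while MERKO 1 lay above them. The log2 fold change was -0.22 (SE 0.15, interval -0.55 to 0.12, adjusted p = 0.749).

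The junction genes came next. Cdh5, which encodes VE-cadherin (chromosome 8, 104101625 to 104144511, plus strand), stood at 32.8, 24.0 and 26.3 CPM in MERKO muscle and 27.5, 25.6 and 23.5 CPM in control muscle. All control values but the lowest lay inside the MERKO range, and the log2 fold change was 0.13 (SE 0.13, interval -0.18 to 0.43, adjusted p = 0.848). Pecam1, the adhesion molecule CD31 (chromosome 11, 106654217 to 106750628, minus strand), stood at 59.8, 37.8 and 53.0 CPM in MERKO muscle and 65.1, 48.1 and 44.1 CPM in control muscle. The groups overlapped (log2 fold change -0.057, SE 0.20, interval -0.51 to 0.40, adjusted p = 0.959). These intervals exclude a change of 2-fold in either direction for both genes.

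Nos3, the endothelial nitric oxide synthase (chromosome 5, 24364810 to 24384474, plus strand), was the least abundant by counts, with 349, 58 and 119 counts in MERKO and 166, 105 and 304 counts in control muscle. In CPM it stood at 10.6, 4.88 and 5.73 in MERKO and 6.97, 8.29 and 5.59 in control. MERKO 1 was the highest library and MERKO 2 the lowest, so the groups overlapped fully (log2 fold change 0.081, SE 0.29, interval -0.59 to 0.75, adjusted p = 0.960). The opposite-strand genes Gm15587 and Atg9b share 1040 and 294 exonic bases with Nos3. Both were at 0.168 CPM or less in every library.

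Thbs1, the inhibitor of vessel growth thrombospondin-1 (chromosome 2, 118111876 to 118127133, plus strand), had 1547, 259 and 291 counts in MERKO and 300, 80 and 430 counts in control. In CPM it stood at 47.0, 21.8 and 14.0 in MERKO and 12.6, 6.31 and 7.90 in control. The groups did not overlap, but the lowest MERKO library and the highest control library lay close together, and groups failed to overlap in 13.3% of all genes tested. The log2 fold change was 1.63 (SE 0.44, interval 0.63 to 2.63), with an unadjusted p of 0.00550 and an adjusted p of 0.654 in the edgeR test and an adjusted p of 0.417 in DESeq2. The fitted fold was 3.09, with an interval from 1.54 to 6.18. With MERKO 1 left out the log2 value was 0.98 (adjusted p = 0.779). edgeR called Thbs1 without a composition factor (adjusted p = 0.000457), where 93 of 13628 genes were called. It also did so without a filter on low counts (adjusted p = 0.00175), where 140 of 25904 genes were called. The antisense gene Gm29233, which shares 208 exonic bases with Thbs1, had 0 counts in all 6 libraries.

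**Figure D2:**
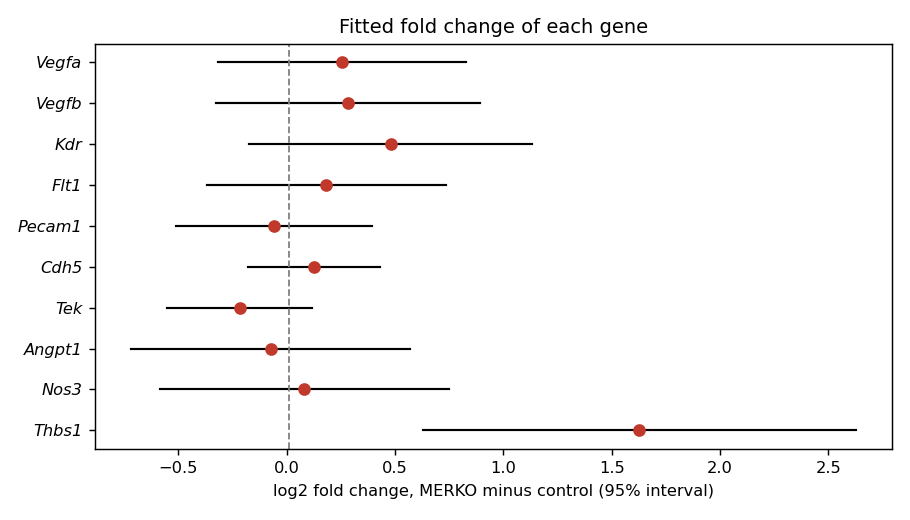
Fitted log2 fold change, MERKO minus control, with its 95% interval for each of the 10 genes, and the median of all genes tested as a dashed line (0.011). The interval of Thbs1 (0.63 to 2.63) is the 1 of the 10 that does not include 0.

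Per kilobase of merged exon, both VEGF ligand genes stood above the other 8 genes in the mean of each group. Vegfa was at 35.8 ± 9.27 CPM per kb in MERKO and 30.0 ± 9.34 CPM per kb in control, and Vegfb at 18.6 ± 6.31 and 15.4 ± 4.23 CPM per kb. Ordered by the control mean, Pecam1 (8.06 CPM per kb in MERKO, 8.42 in control), Cdh5 (6.59 and 6.07), Tek (4.97 and 5.80), Flt1 (4.82 and 4.26), Kdr (3.53 and 2.55), Angpt1 (2.27 and 2.42), Nos3 (1.71 and 1.68) and Thbs1 (4.55 and 1.47) followed. Among neighbours in this order, the control ranges were separate between Vegfa and Vegfb, Vegfb and Pecam1, Pecam1 and Cdh5, and Angpt1 and Nos3. They overlapped for the other 5 pairs. Merged exons include every annotated isoform, and isoform use was not measured.

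Ratios of these per-kilobase levels within a library were taken for 11 pairs of genes, picked with the values of the genes known. The groups did not overlap in 3 of the 11 and overlapped in 8. Single genes failed to overlap in 13.3% of all genes tested, and no such share was computed over ratios of gene pairs. The ratio of Vegfa to Vegfb was 1.97 ± 0.18 in MERKO and 1.95 ± 0.222 in control (SD, n = 3 each), with overlapping libraries. Flt1 over Kdr was 1.38 ± 0.213 in MERKO and 1.72 ± 0.262 in control, and the libraries overlapped there too. Tek over Cdh5 was 0.785, 0.795 and 0.678 in MERKO libraries 1 to 3 and 0.904, 1.002 and 0.968 in control libraries 1 to 3. All MERKO values lay below all control values, while Tek itself overlapped in CPM. Thbs1 over Vegfa was 0.171, 0.135 and 0.0649 in MERKO and 0.0513, 0.0382 and 0.0579 in control, and Thbs1 over Cdh5 did not overlap either. Thbs1 by itself did not overlap in CPM, so its ratios are not separate results. The other 6 ratios overlapped. Their means were 2.33 in MERKO and 2.47 in control for Tek over Angpt1 and 5.38 and 4.89 for Vegfa over Cdh5. Over Cdh5, Kdr averaged 0.531 in MERKO and 0.414 in control, Flt1 0.724 and 0.694, Pecam1 1.22 and 1.38, and Nos3 0.253 and 0.277. With 3 libraries against 3 no exact permutation test could give a p under 0.1, and none is given.

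The genes varied together less closely once library 1 of both groups was left out. Pearson correlations of log2 CPM over the 6 libraries were computed for all 45 pairs, with a median r of 0.72 and a range from -0.049 to 0.99. Over the 4 libraries left without MERKO 1 and control 1, the median r was 0.25 and 16 of the 45 pairs were negative, against 1 of 45 over all 6. The 6 pairs among Vegfa, Vegfb, Flt1 and Cdh5 stayed positive there, with r of at least 0.69. For the 15 pairs among Kdr, Flt1, Pecam1, Cdh5, Tek and Nos3, the median r over all 6 libraries was 0.67. It was 0.56 without MERKO 1 alone and 0.78 without control 1 alone. Without both it was 0.50, and 5 of the 15 pairs were negative. The libraries share their make-up and depth, so these values describe the libraries. Vegfa and Flt1 were the closest pair, with r = 0.99 (exact permutation p = 0.00139, the smallest that 720 orders can give, adjusted over 45 pairs 0.03125) and Spearman's rho of 1 (exact permutation p = 0.00278, adjusted 0.0417). Without the 2 libraries farthest from the median of Vegfa, r was 0.98, and it was 0.997 for deviations from the group means. Flt1 and Cdh5 had r = 0.92 (exact permutation p = 0.00139, adjusted 0.03125) and rho of 1 (p = 0.00278, adjusted 0.0417, exact permutation test), and r was 0.94 without the 2 farthest libraries. The genes for VEGF-A, its receptor FLT1 and VE-cadherin thus had the same order of libraries.

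Other pairs of this group did not pass in Pearson's r after adjustment. Vegfa and Vegfb had r = 0.95 (exact permutation p = 0.0167, adjusted 0.0938) and rho of 0.83 (p = 0.0583, adjusted 0.175, exact permutation), with r = 0.99 without the 2 farthest libraries. Vegfa and Cdh5 had r = 0.90 (exact permutation p = 0.00417, adjusted 0.0625), and rho of 1 (p = 0.00278, adjusted 0.0417, exact permutation), with r = 0.90 without the 2 farthest libraries. As background, 5.03% of 7135 well-expressed genes had an r above 0.9 with Vegfa and 5.66% with Flt1, and the median r with all of them was -0.12 for both.

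Pairs with Tek were the weakest of the set. The 9 of them had a median r of 0.35, the lowest of the 10 genes, and the highest value was 0.79 with Nos3. The 9 pairs with Thbs1 had a median r of 0.62 and those with Nos3 one of 0.64. For deviations from the group means the medians were 0.72 for Tek and 0.68 for Thbs1, against 0.80 over all pairs. Tek against Thbs1, the angiopoietin receptor against the angiogenesis inhibitor, had r = -0.049 (exact permutation p = 0.943, adjusted 0.943) and rho of -0.029 (p = 1, adjusted 1, exact permutation), with r = 0.44 without the 2 libraries farthest from the median of Tek. For deviations from the group means, over all 6 libraries, the same pair had r = 0.80. Over the 4 libraries without MERKO 1 and control 1 it had r = -0.87. The sign thus rested on the libraries used and on whether the group means were removed.

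**Figure D3:**
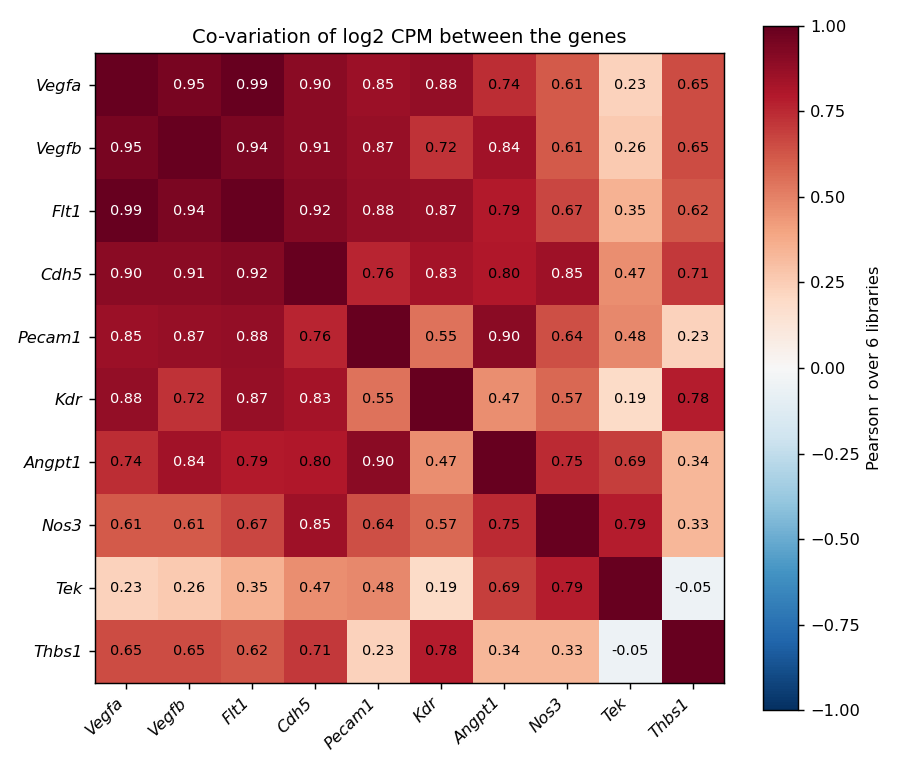
Pearson r of log2 CPM over the 6 libraries for each of the 45 pairs, with red for positive and blue for negative values. Vegfa, Vegfb, Flt1 and Cdh5 form the block of high values (r from 0.90 to 0.99), and the Tek row is the palest (median r 0.35).

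The 6 endothelial genes of the set, Kdr, Flt1, Pecam1, Cdh5, Tek and Nos3, were then averaged per library as log2 CPM relative to the mean of the 6 libraries. The average was 0.43, -0.24 and -0.075 in MERKO libraries 1 to 3 and 0.20, 0.0058 and -0.32 in control libraries 1 to 3. The spread within each group was wider than the gap between them. MERKO 1 and control 1, the libraries in which slow fibre genes were high, were the highest of their groups. The 10 slow fibre genes summed to 659, 61.1 and 81.9 CPM in MERKO libraries 1 to 3 and 668, 73.0 and 74.3 CPM in control libraries 1 to 3, with none of the 10 at 0. With only these 4 other libraries, without library 1 of both groups, r was 0.99 for Vegfa and Flt1, 0.94 for Flt1 and Cdh5, 0.83 for Vegfa and Vegfb, and -0.49 for Flt1 and Tek. It was 0.038 for Vegfa and Nos3, -0.010 for Kdr and Pecam1 and -0.69 for Kdr and Angpt1. The part of fibre type in the shared pattern was not tested.

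**Figure D4:**
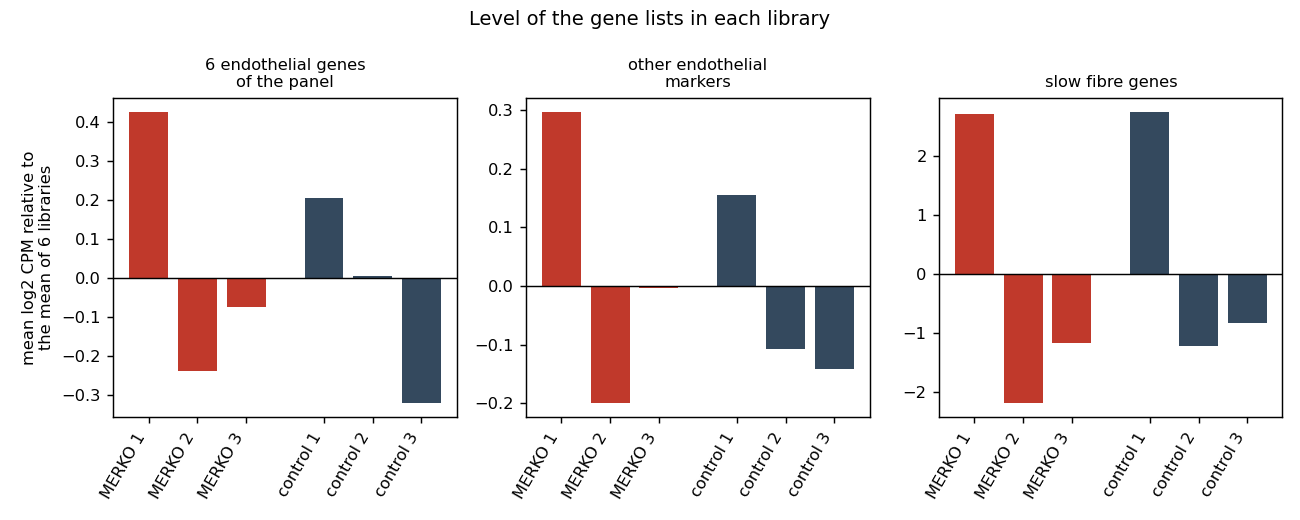
Mean log2 CPM relative to the mean of the 6 libraries for the 6 endothelial genes of the set, 40 other endothelial markers and 10 slow fibre genes, with MERKO in red and control in dark blue. In all 3 lists library 1 is the highest of its group, and the vertical scale differs between panels.

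The genes nearest to this endothelial average, among 7127 with an average log2 CPM of at least 3, had r from 0.98 to 0.99 over the 6 libraries. They were Khnyn, Hsd17b4, Cox19, Miga2, Ethe1, Cd300lg, Supv3l1, Prex2, Nsun4 and Kank3. Cd300lg, an endothelial mucin-like receptor, stood at 21.3, 12.5 and 14.4 CPM in MERKO muscle and 19.7, 15.9 and 12.5 CPM in control muscle. Hsd17b4, an enzyme of peroxisomal fatty acid oxidation, stood at 74.7, 49.2 and 55.8 CPM in MERKO muscle and 68.4, 58.2 and 44.9 CPM in control muscle. Supv3l1, Nsun4, Cox19 and Ethe1 encode mitochondrial proteins or assembly factors. None of the 10 had an adjusted p below 0.884 between the genotypes (edgeR).

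Wider marker lists were taken next. Of 40 other endothelial markers, 28 were higher and 12 lower in MERKO, with 0 called by edgeR, 0 at an unadjusted p under 0.05, and a median log2 fold change of 0.059. Their summed level was 1083, 762 and 883 CPM in MERKO muscle and 1024, 860 and 804 CPM in control muscle. Cldn5, a tight junction protein, had the lowest p. It stood at 3.59, 3.03 and 4.33 CPM in MERKO muscle and 4.62, 4.34 and 5.40 CPM in control muscle, without overlap (log2 fold change -0.39, SE 0.18, adjusted p = 0.713). Next came the transcription factor gene Gata2 (0.45, SE 0.22) and Rasip1 (0.28, SE 0.15), a regulator of endothelial lumen formation, both with overlapping libraries.

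Pericytes and smooth muscle cells wrap the capillaries and arterioles. Of their 16 markers 13 were higher in MERKO muscle. The median log2 fold change was 0.18, with 0 called or at an unadjusted p under 0.05 (edgeR). Their sums overlapped, at 800, 715 and 719 CPM in MERKO muscle and 810, 767 and 642 CPM in control muscle. Notch3, the Notch receptor of mural cells, stood at 17.5, 14.6 and 15.01 CPM in MERKO muscle and 13.9, 14.2 and 10.6 CPM in control muscle (log2 fold change 0.30, SE 0.14, adjusted p = 0.713). Mcam, an adhesion molecule of mural and endothelial cells, had a log2 fold change of -0.28 (SE 0.14), and Cnn1, a smooth muscle calponin, one of 0.88 (SE 0.58), at under 1 CPM in every library.

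Lymphatic endothelium was represented by 7 tested genes, of which 6 were higher, with 0 called and 1 at an unadjusted p under 0.05 (edgeR). Reln, a glycoprotein that lymphatic endothelium secretes, stood at 13.4, 10.7 and 11.6 CPM in MERKO muscle and 7.86, 8.29 and 7.35 CPM in control muscle. All MERKO libraries lay above all control libraries (log2 fold change 0.62, SE 0.13, adjusted p = 0.631). Mmrn1 had a log2 fold change of 0.45 (SE 0.21) with overlapping libraries. Nrp2, a co-receptor for VEGF-C, stood at 11.1, 9.43 and 9.53 CPM in MERKO muscle and 8.44, 8.76 and 8.64 CPM in control muscle, again without overlap (0.23, SE 0.12, adjusted p = 0.713).

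Other ligands and receptors of the VEGF and angiopoietin families were tested in 13 genes, 9 higher and 4 lower, with a median log2 fold change of 0.21, 0 called and 1 at an unadjusted p under 0.05 (edgeR). That gene was Pgf, placental growth factor, a further ligand of FLT1. It stood at 1.19, 1.43 and 1.35 CPM in MERKO muscle and 0.924, 0.631 and 0.864 CPM in control muscle (log2 fold change 0.66, SE 0.28, adjusted p = 0.694), without overlap but at low counts. Angpt2, which opposes Angpt1 at TEK, stood at 1.31, 1.85 and 1.73 CPM in MERKO muscle and 1.76, 3.24 and 2.33 CPM in control muscle (-0.58, SE 0.29, adjusted p = 0.713), and the groups overlapped through control 1.

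Of 18 genes of hypoxia sensing and other regulators of Vegfa, 8 were higher and 10 lower, with a median of -0.032 on the log2 scale and 0 called or at an unadjusted p under 0.05 (edgeR). Egln3, an oxygen-sensing prolyl hydroxylase and itself a hypoxia target, had the lowest p of them. It stood at 13.1, 4.21 and 6.26 CPM in MERKO muscle and 6.13, 2.13 and 1.305 CPM in control muscle, and the groups overlapped (log2 fold change 1.36, SE 0.59, adjusted p = 0.706). Epas1, which encodes the hypoxia factor HIF-2α of endothelium, stood at 68.7, 52.7 and 63.5 CPM in MERKO muscle and 65.7, 47.7 and 37.1 CPM in control muscle, and Adm, the vasodilator peptide adrenomedullin, had a log2 fold change of -0.35 (SE 0.25).

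Around Nos3, 17 genes of nitric oxide signalling were tested. Of these 12 were higher and 5 lower, with a median log2 fold change of 0.12, 0 called and 1 at an unadjusted p under 0.05 (edgeR). Gucy1a1, a subunit of the guanylate cyclase that senses nitric oxide, stood at 12.6, 9.93 and 9.24 CPM in MERKO muscle and 9.49, 6.63 and 7.37 CPM in control muscle (log2 fold change 0.44, SE 0.18, adjusted p = 0.683). Nos2, the inducible synthase, was at 2.02 CPM or less in MERKO and 1.26 CPM or less in control (0.74, SE 0.35), and the kinase gene Akt1 had a log2 fold change of 0.16 (SE 0.10).

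Genes of the Notch, ephrin, apelin, BMP and FGF branches of vessel growth were tested in 24, with 18 higher, 6 lower, 0 called and 0 at an unadjusted p under 0.05 (edgeR). The median log2 fold change was 0.14. Acvrl1, an endothelial BMP receptor also called ALK1, had a log2 fold change of 0.27 (SE 0.14), and Efnb2, the arterial ephrin, of 0.32 (SE 0.17), both with overlapping libraries. Eng, the co-receptor endoglin, stood at 14.3, 14.6 and 16.3 CPM in MERKO muscle and 13.8, 13.1 and 13.1 CPM in control muscle, without overlap (0.17, SE 0.10, adjusted p = 0.715).

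A list of inhibitors of vessel growth and related genes, without Thbs1, was higher in 15 of 17 tested genes, with a median log2 fold change of 0.14. Thbs4 is on it as a relative of Thbs1, and whether it acts as an inhibitor was not tested. By edgeR 0 were called and 3 of 17 had an unadjusted p under 0.05, against 7.04% of all genes, and 2 of 17 did not overlap between the groups, against 13.3% of all genes. The whole list summed to 1444, 908 and 925 CPM in MERKO libraries 1 to 3 and 1094, 921 and 935 CPM in control libraries 1 to 3. MERKO 1 was thus the highest library and MERKO 2 the lowest. Thbs4, a thrombospondin of tendon and muscle, stood at 152, 83.3 and 44.5 CPM in MERKO muscle and 48.4, 15.6 and 33.1 CPM in control muscle (log2 fold change 1.52, SE 0.49, adjusted p = 0.668), and the groups overlapped. Vash1, the endothelial inhibitor vasohibin-1, stood at 4.32, 4.38 and 2.98 CPM in MERKO muscle and 2.44, 1.10 and 2.67 CPM in control muscle (0.84, SE 0.31, adjusted p = 0.683). Sulf1, a heparan sulfatase, stood at 19.2, 13.8 and 15.5 CPM in MERKO muscle and 13.8, 9.55 and 13.03 CPM in control muscle (0.41, SE 0.17, adjusted p = 0.687). Vash1 and Sulf1 did not overlap between the groups.

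Genes of other cell types and of stress were set beside Thbs1. Tendon markers summed to 632, 295 and 116 CPM in MERKO libraries 1 to 3 and 125, 44.8 and 104 CPM in control libraries 1 to 3, with 12 of 13 higher in MERKO, 0 called, 11 at an unadjusted p under 0.05 (edgeR) and none at 0 in every library. That list holds Thbs4. Comp, a tendon and cartilage matrix protein, had 32.7, 11.03 and 3.46 CPM in MERKO muscle and 2.90, 1.03 and 1.64 CPM in control muscle. Its order of libraries was that of Thbs1 in both groups. Kera, the proteoglycan keratocan, had 25.6, 14.5 and 4.09 CPM in MERKO muscle and 2.27, 1.03 and 1.76 CPM in control muscle, without overlap (log2 fold change 3.08, SE 0.61, adjusted p = 0.631, edgeR). Cilp2, a cartilage matrix protein, had 21.3, 8.33 and 2.45 CPM in MERKO muscle and 2.48, 0.158 and 0.974 CPM in control muscle, and MERKO 3 lay just below control 1 (3.09, SE 0.84).

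Among 7127 well-expressed genes Comp was second by correlation with Thbs1 (r = 0.99 over the 6 libraries), after Adamtsl4 (r = 0.99), a search made after the values of Thbs1 were seen. Ranks 3 to 10 were Arhgef18, Slc12a4, Pld1, Sfpq, Clstn1, Synj2, Pkd2 and Ier5, with r from 0.98 to 0.99. Of these neighbours, only Comp was in the tendon list. As background, 1.22% of 7135 well-expressed genes had an r above 0.9 with Thbs1. Atf3, a stress-induced transcription factor, stood at 5.47, 2.53 and 2.84 CPM in MERKO muscle and 1.39, 0.631 and 1.10 CPM in control muscle (log2 fold change 1.77, SE 0.37, adjusted p = 0.631), also without overlap. The 16 tested immediate early genes, to which Atf3 belongs, were 8 higher and 8 lower, with a median log2 fold change of 0.025, 0 called and 1 at an unadjusted p under 0.05 (edgeR). The whole list summed to 240 to 292 CPM in MERKO muscle and 231 to 305 CPM in control muscle. Of the same list, the matricellular protein genes Ccn2 (log2 fold change 1.00, SE 0.44) and Ccn1 (-0.46, SE 0.23) lay on opposite sides of 0, both with overlapping libraries. Platelets carry thrombospondin-1 protein, and the platelet and erythrocyte list was lower in 7 of 7 tested genes. The shifts were small, with a median log2 fold change of -0.063, 0 called and 0 at an unadjusted p under 0.05 (edgeR). The list summed to 94.2 to 124 CPM in MERKO muscle and 97.7 to 167 CPM in control muscle, and none of its 10 genes was at 0 in every library. Pf4, the platelet factor 4 gene, stood at 4.196, 3.79 and 4.38 CPM in MERKO muscle and 4.12, 4.58 and 5.39 CPM in control muscle. The haemoglobin gene Hbb-bs had a log2 fold change of -0.24 (SE 0.21), and Alas2, the haem synthesis enzyme of red cells, one of -0.078 (SE 0.25). The part of tendon tissue, stress response or blood cells in the Thbs1 values was not tested.

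**Figure D5:**
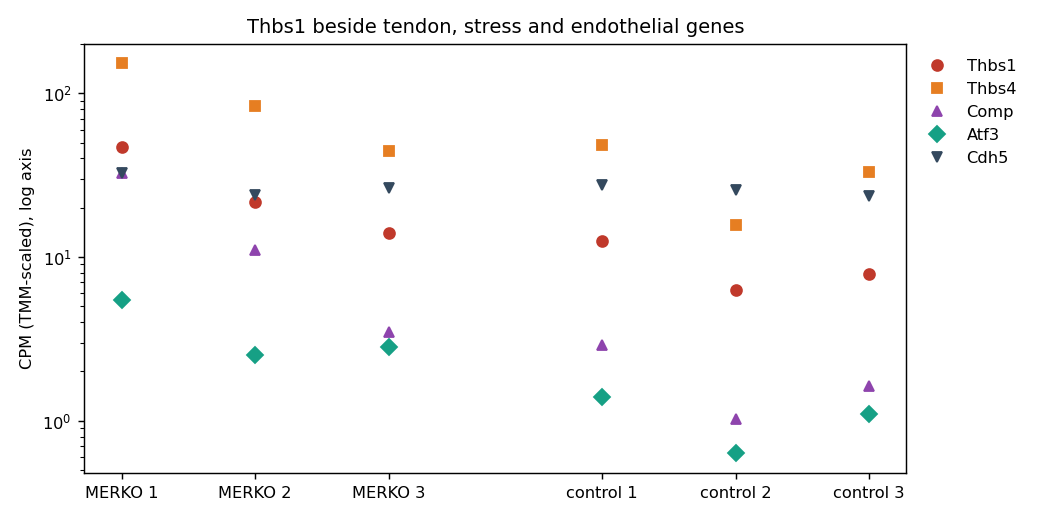
CPM per library on a log axis for Thbs1, its relative Thbs4, the tendon gene Comp, the stress gene Atf3 and the endothelial gene Cdh5, with MERKO libraries at the left and control libraries at the right. Thbs1, Comp and Atf3 are highest in MERKO 1 (47.0, 32.7 and 5.47 CPM), while Cdh5 stays between 23.5 and 32.8 CPM in all 6 libraries.

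Markers of further cell types were set beside the endothelial genes. Adipocyte markers were lower in 13 of 13 tested genes, with 0 called and 9 at an unadjusted p under 0.05 (edgeR), and summed to 539 to 668 CPM in MERKO muscle and 761 to 1112 CPM in control muscle. Schwann cell and nerve markers were higher in 9 of 9, with sums of 42.5 to 66.9 CPM in MERKO muscle and 30.6 to 40.2 CPM in control muscle, 0 called and 3 at an unadjusted p under 0.05. Fibroblast markers (3 of 11 higher), macrophage markers (5 of 11 higher) and fast fibre genes (3 of 10 higher) held 0 called genes each. At an unadjusted p under 0.05 (edgeR) were 3, 1 and 0 of them, against 7.04% of all genes. Fibroblast markers summed to 1737 to 2457 CPM in MERKO muscle and 1728 to 2505 CPM in control muscle. Macrophage markers summed to 145 to 210 and 149 to 260 CPM, and fast fibre genes to 94736 to 144140 and 117440 to 138410 CPM. Of the adipocyte, nerve, fibroblast, macrophage and fast fibre lists, no gene was at 0 in every library. Their part in the values of the 10 genes was not tested.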

How the data were processed

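Quadriceps RNA of MERKO and control mice was sequenced from Illumina TruSeq libraries, 3 for each genotype, per the labels' protocols. The authors deposited raw read counts per gene. Per the submitters' processing notes, the builds were mm10 and GRCm38 and the tools included DESeq, HTSeq 0.9.1 and STAR 2.5.2b; their roles, the annotation release and the strand setting were not given in any source used here. The count columns named WT were matched to the samples titled control by their wild-type genotype label.

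Symbols (48435 of 48795 identifiers), coordinates and exon lengths came from GENCODE M21 (GRCm38). Genes were kept by filterByExpr (13628 left), scaled by TMM, and tested for genotype alone with edgeR's quasi-likelihood test (version 4.0.16, R 4.3.3). P-values were adjusted by Benjamini-Hochberg over all these genes, at a threshold of 0.05. Fold changes are MERKO minus control, and CPM use TMM factors. Correlations used log2 CPM with a prior count of 2. Reads without molecular identifiers are not independent molecules.

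The 10 genes, the 17 lists and the rule for named genes were chosen with earlier results of these data known. The rule took the 10 genes, the 3 lowest-p genes of each list, and the 10 genes nearest to the endothelial average. The 10 genes nearest to Thbs1 were added after its values were seen. For the fast fibre, adipocyte, fibroblast, macrophage and nerve lists only counts and sums are given. For the slow fibre list, sums, means per library and the values of Myh7 are given. On simulated data for this comparison (5 simulations, 200 changed genes each, a median of 13435 genes tested), the edgeR step recovered 7.56% of 1.5-fold, 59.0% of 2-fold and 92.3% of 4-fold changes, and 9.55% of its calls were false. Counts were drawn independently for each gene, without the shifts between libraries that many genes share here. These rates hold for such simulated counts and are not rates of detection in the real libraries. Libraries of one group differed by more than sampling noise (a chi-square of 109.6 or more for each degree of freedom). Alternatives were DESeq2 1.42.0, limma-voom (limma 3.58.1), other scalings and filters, the replicate number as a block, and leaving out libraries.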

Additional observations from a re-analysis of the deposited data

How the results depend on the processing

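Under 16 alternatives, the 10 log2 fold changes kept their direction and their side of the threshold in 145 of 160 values; 12 changed sign and 3, all of Thbs1, passed the threshold. The number of called genes was 1 of 13628 in the main test and 23 with DESeq2. It was 93 of 13628 without a composition factor, 140 of 25904 without a filter and 51 of 13628 with the replicate block. Without MERKO 1 and control 1 it was 7, and it was 0 to 11 when each library was left out. Of the 10 genes, 1 was called without a composition factor (Thbs1, adjusted p = 0.000457), 1 without a filter (Thbs1, 0.00175) and 1 with the replicate block (Thbs1, log2 fold change 1.49, 0.0221), all by edgeR; the cause was not tested. Without a composition factor the median of all genes was -0.10, against 0.011. The replicate numbers did not pair the libraries by the criterion used: deviations of same-numbered libraries correlated at 0.448, 0.163 and 0.0612, below 0.1 for the third, and MERKO 2 and MERKO 3 correlated better with another number. With each library left out, log2 fold changes that changed sign ran from -0.034 to 0.44 (Flt1), -0.017 to 0.22 (Cdh5), -0.36 to 0.27 (Nos3), -0.20 to 0.13 (Pecam1) and -0.46 to 0.14 (Angpt1), and that of Thbs1 from 0.98 to 1.95 (adjusted p 0.326 to 0.999). Nos3 was at -0.33 without MERKO 1 and control 1, and Pecam1 at 0.055 and Angpt1 at 0.034 without MERKO 2 and control 2. The median r among the 6 endothelial genes, 0.67, was 0.854 without a composition factor, 0.77 as Spearman's rho, 0.82 for deviations from group means and 0.56 to 0.78 with each library left out. Without MERKO 1 and control 1 this median was 0.50. Depth limited Nos3 most, with 58 counts in MERKO 2.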
